A study of Mus musculus with 6 samples.

Results

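FLAG-PTBP1 was crosslinked to 1996 RNA sites in mouse cortex at which neither PTBP2 library listed a single interval. These sites were taken from 15078 stacked FLAG-PTBP1 sites on chromosomes 1 to 3 and 11 to 19, a stacked site being a run of 5 or more distinct read intervals that overlap or touch on 1 strand. A site was kept when it also overlapped a stacked site of the second FLAG-PTBP1 library on the same strand, and no interval of either PTBP2 library or of either wild-type FLAG library. The lists thus chose the sites, and their counts inside the sites are given as a description with no test. All 6 libraries together held 211130 merged sites.

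A crosslinking and immunoprecipitation (CLIP) assay was applied to neocortices of BL6/129Sv mice at postnatal day 1: ultraviolet irradiation (400 mJ/cm2) joined proteins to the RNA they touched, and the RNA that came down with the antibody from the nuclear fraction was sequenced. FLAG antibody was used in 1 library from Rosa-PTBP1; Emx1-cre cortex, in 1 library from Rosa-PTBP1; PTBP2 loxp/loxp; Emx1-Cre cortex (the FLAG loxp library below) and in 2 libraries from wild-type (WT) cortex. PTBP2 antibody was used in 1 library from WT cortex and in 1 library from Rosa-PTBP1; Emx1-cre cortex. Every cortex with FLAG-PTBP1 carried both Rosa-PTBP1 and a Cre recombinase driven by Emx1, which is active in the dorsal forebrain lineage that gives rise to excitatory neurons and astroglia. A neocortex also holds cells outside that lineage, such as interneurons, microglia and vessel cells. Wild-type cortex holds no FLAG-PTBP1, so its FLAG libraries measured what the antibody and the procedure gave without the tagged protein. The labels do not say whether libraries came from separate or pooled animals, and apart from wild-type FLAG each group held 1 library.

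PTBP1 and PTBP2 are closely related RNA-binding proteins that recognise pyrimidine-rich stretches of RNA and are best known as regulators of splicing. PTBP1 is abundant in neural progenitors and in many non-neuronal cells and falls as neurons form, while PTBP2 rises in new neurons and takes over part of its targets. Because their RNA recognition domains are so similar, a transgene that puts PTBP1 into cortical cells allows the binding of both proteins to be compared on the same transcripts.

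On the 12 chromosomes the FLAG Rosa-PTBP1 list held 223107 distinct intervals, the FLAG loxp list 154407, PTBP2 WT 93916 and PTBP2 Rosa-PTBP1 61697. The wild-type FLAG lists held 51141 and 17129 for replicates 1 and 2. The other chromosomes are outside the definition: chromosome 10 held 531 distinct intervals in FLAG Rosa-PTBP1 against 16905 in FLAG loxp, and chromosomes 4 to 9 held 399 to 1540 each in PTBP2 Rosa-PTBP1 against 5907 to 9963 in PTBP2 WT. By the read names, both FLAG-PTBP1 libraries and wild-type FLAG replicate 2 came from the sequencing run WA047, and both PTBP2 libraries and wild-type FLAG replicate 1 from the runs XA041 and XB028. Antibody and run therefore cannot be told apart in a comparison of FLAG-PTBP1 with PTBP2. Interval lengths differed in the same way, with medians of 30 and 32 bases for FLAG Rosa-PTBP1 and FLAG loxp against 38 and 40 bases for PTBP2 WT and PTBP2 Rosa-PTBP1. The lists hold clusters that passed a false discovery rate, so a site listed at 0 may have held reads that were not kept. No gene model or genome of the mm9 build was used here, so sites are named by position, and neither the genes that hold them, their sequence, nor the markers of the cortex and the floxed Ptbp2 gene were examined.

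Most FLAG-PTBP1 sites dropped out at the step that required both FLAG-PTBP1 libraries. Of the 15078 stacked sites, 6036 overlapped a stacked FLAG loxp site. Among these, 886 (14.7%) held a wild-type FLAG interval and were set aside. The remaining 5150 sites divided into 3154 with a PTBP2 interval (61.2%) and the 1996 without one (38.8%). The 3154 sites serve below as the comparison set, called PTBP2-listed sites. Of these, 1474 held intervals of both PTBP2 libraries, 1356 of PTBP2 WT alone and 324 of PTBP2 Rosa-PTBP1 alone, and 229 (7.26%) rested on 1 PTBP2 interval in both lists together. At the edge of the definition, 234 members had exactly 5 FLAG Rosa-PTBP1 intervals, and 338 lay over a FLAG loxp site of exactly 5. Just outside it lay 167 sites of 4 FLAG Rosa-PTBP1 intervals over a stacked FLAG loxp site, and 228 stacked sites over a FLAG loxp site of 4. On the PTBP2 side, 12 members had a PTBP2 interval on the adjoining base.

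The members were mostly small sites. They held 5 to 123 distinct FLAG Rosa-PTBP1 intervals with a median of 9, where PTBP2-listed sites held 5 to 438 with a median of 14 and all 15078 stacked sites a median of 8. In the FLAG loxp library the same members held 1 to 71 intervals with a median of 7, against 12 at PTBP2-listed sites. Member width ran from 29 to 403 bases with a median of 67, and PTBP2-listed sites had a median of 86. Width followed the number of intervals: at 5 to 9 intervals the medians were 56 and 59 bases for members and PTBP2-listed sites, at 10 to 19 they were 80 and 81, and at 20 to 49 they were 132 and 136. At equal interval number the 2 sets were thus of nearly the same width. The length of the single intervals was also close, with medians of 30 bases at members and 31 at PTBP2-listed sites. The minus strand held 1106 members and the plus strand 890 (44.6%), where PTBP2-listed sites were on the plus strand in 43.8%.

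**Figure D1:**
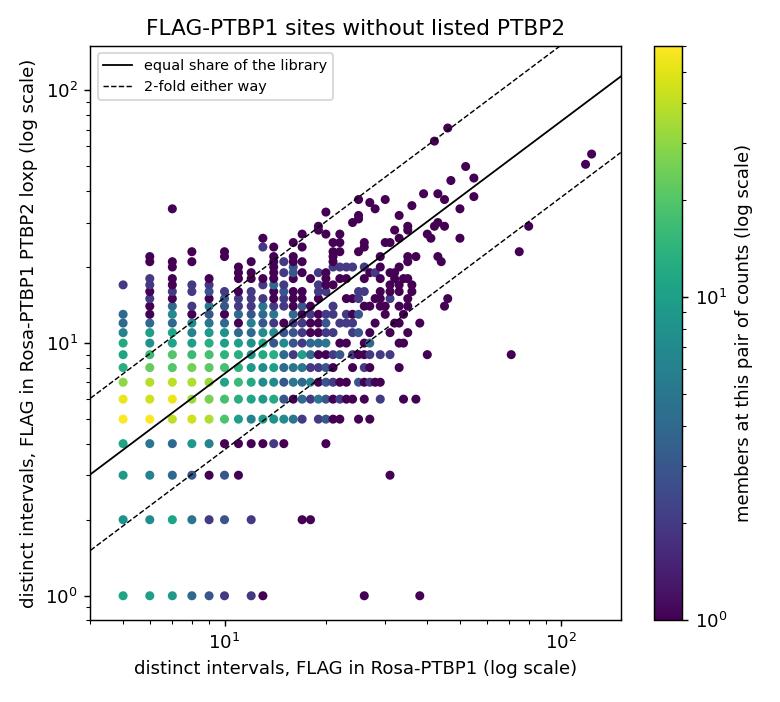
Distinct intervals of each of the 1996 members in FLAG Rosa-PTBP1 (horizontal axis) and FLAG loxp (vertical axis), both on log scales; the colour gives how many members share a pair of counts, the solid line marks an equal share of both libraries and the dashed lines a 2-fold difference. Most members lie near the lower left corner, around the medians of 9 and 7 intervals, and the member farthest to the right holds 123 and 56.

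PTBP2 was missing mainly from sites with few FLAG-PTBP1 intervals. Among sites stacked in both FLAG-PTBP1 libraries and free of wild-type FLAG, 1118 of 2062 with 5 to 9 FLAG Rosa-PTBP1 intervals were without listed PTBP2 (54.2%, exact Clopper-Pearson 95% interval 52.0 to 56.4). At 10 to 19 intervals it was 648 of 1746 (37.1%, 34.8 to 39.4), and at 20 to 49 it was 220 of 1098 (17.7 to 22.5%). At 50 or more intervals only 10 of 244 sites were without PTBP2 (4.10%, 1.98 to 7.41). These intervals cover counting error alone. The same order held in each PTBP2 library taken alone. PTBP2 WT was missing from 61.6% of sites in the lowest class and 4.51% in the highest, and PTBP2 Rosa-PTBP1 from 77.8% and 16.8%. The PTBP2 Rosa-PTBP1 list, the smaller of the 2, thus missed more sites in every class. Sites with more intervals were also wider, and a wider site can meet a PTBP2 interval at more positions. Median width was 56 bases for members and 59 for PTBP2-listed sites in the lowest class, and 277.5 and 267 in the highest. The part of width in this order was not tested.

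**Figure D2:**
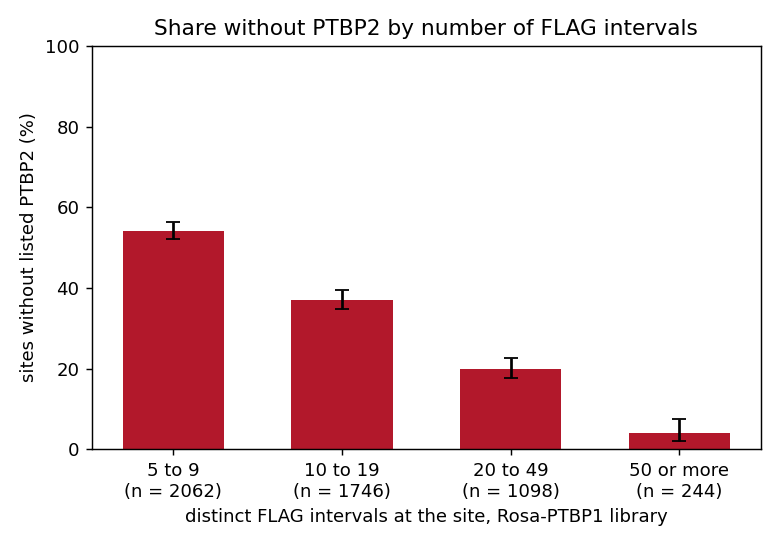
Percentage of sites without a listed PTBP2 interval (bars, with exact Clopper-Pearson 95% intervals) by the number of distinct FLAG Rosa-PTBP1 intervals at the site, among the 5150 sites stacked in both FLAG-PTBP1 libraries and free of wild-type FLAG intervals. The share is 54.2% in the class of 5 to 9 intervals, 4.10% in the class of 50 or more, and in between in the other classes. Sites with more intervals are also wider.

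Depth sets what an empty PTBP2 list can show at a small site. PTBP2 WT held 0.421 intervals for each FLAG Rosa-PTBP1 interval on the 12 chromosomes, so a member with an equal share in both libraries would hold a median of 3.79 PTBP2 WT intervals. For 1335 members this equal share came to fewer than 5 intervals, for 661 (33.1%) to 5 or more and for 150 to 10 or more. For PTBP2 Rosa-PTBP1, of the same genotype as FLAG Rosa-PTBP1, the factor was 0.277, so equal shares there were smaller. Sites were chosen for their FLAG intervals, so equal shares drawn from those counts can be too high. Members with 20 to 49 FLAG Rosa-PTBP1 intervals had a median equal share of 10.5, and those with 50 or more 26.5. From the lowest class to the highest, PTBP2-listed sites held medians of 5, 6, 11 and 31 PTBP2 WT intervals against equal shares of 2.95, 5.47, 11.8 and 28.2. These sites were chosen for holding PTBP2 and the members for holding none, so the difference between the sets follows from the rule. For the 1118 members with fewer than 10 FLAG Rosa-PTBP1 intervals the median equal share was 2.95, so there an empty list lies only a few intervals from an equal share. Whether depth or the authors' cluster calling accounts for the smaller members was not tested.

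PTBP2 was listed close to most members. The nearest PTBP2 interval on the same strand was a median of 273 bases from the edge of the member, and it lay within 50 bases for 359 members (18.0%), within 200 bases for 847 (42.4%), within 1000 for 1516 (76.0%) and within 10000 for 1902 (95.3%). A stacked PTBP2 site lay within 200 bases of 497 members (24.9%) and within 1000 bases of 1091 (54.7%). Most members thus had PTBP2 listed within 1000 bases. The nearest PTBP2 WT interval was a median of 390.5 bases away and the nearest PTBP2 Rosa-PTBP1 interval 813.5 bases. Wild-type FLAG intervals were a median of 696 bases away and within 200 bases of 404 members (20.2%). They lay within 1000 bases of 1200 members (60.1%) and within 10000 bases of 1960 (98.2%). At the longer distances nearness was therefore not particular to PTBP2. PTBP2 lay upstream and downstream about equally often: of the members with PTBP2 within 200 bases, the nearest interval was 5′ of the member in 431 and 3′ in 416.

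The RNA beside the members carried less PTBP2 than the RNA beside PTBP2-listed sites. In the 1000 bases on each side of a member, PTBP2 WT held a median of 5 intervals and PTBP2 Rosa-PTBP1 1, against 19 and 6 beside PTBP2-listed sites. FLAG-PTBP1 was also lower beside members, with medians of 39 in FLAG Rosa-PTBP1 and 26 in FLAG loxp against 59 and 43. Any PTBP2 WT interval was present in the flanks of 1359 members (68.1%) and 2610 PTBP2-listed sites (82.8%). The wild-type FLAG libraries held medians of 1 and 0 in the flanks of both sets. Counted per 100000 intervals of the library on the 12 chromosomes, the mean number in the flanks was 27.1 for FLAG Rosa-PTBP1 and 17.4 for PTBP2 WT at members, and 38.7 and 44.5 at PTBP2-listed sites. PTBP2 WT thus lay below FLAG Rosa-PTBP1 around members and above it around PTBP2-listed sites. Because members have fewer FLAG intervals, the flanks were also compared at equal number. At 20 to 49 FLAG Rosa-PTBP1 intervals the median flank count of FLAG Rosa-PTBP1 was 76 beside members and 83 beside PTBP2-listed sites, while that of PTBP2 WT was 9 and 25.5. At 5 to 9 intervals the medians were 29 and 35 for FLAG Rosa-PTBP1, and 4 and 14 for PTBP2 WT. The sets were split by PTBP2 inside the site, so PTBP2 counts close beside it are not independent of the rule. Comparing at equal number of FLAG intervals does not remove this. Flanks of neighbouring sites overlap, and an interval can be counted beside more than 1 site, so no test was made on these counts.

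**Figure D3:**
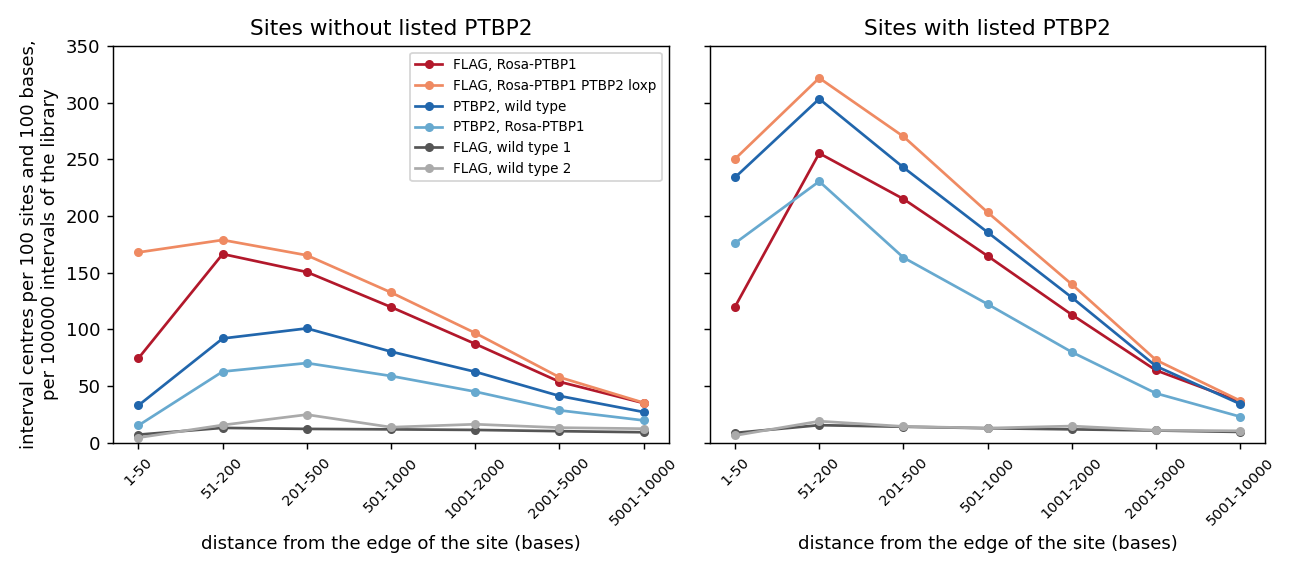
Interval centres per 100 sites and 100 bases, per 100000 intervals of each library on the 12 chromosomes, by distance from the edge of the site, beside the 1996 members (left) and the 3154 PTBP2-listed sites (right). Beside members, both FLAG-PTBP1 lines lie above both PTBP2 lines from 1 to 10000 bases, and both wild-type FLAG lines lie lowest; beside PTBP2-listed sites PTBP2 WT lies above FLAG Rosa-PTBP1 out to 5000 bases. The first bins are low for FLAG Rosa-PTBP1, since intervals that touch a site belong to it. The sets were split by PTBP2 inside the site, so the PTBP2 lines are not independent of the rule.

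At 201 to 500 bases from members, the density per 100 sites and 100 bases was 150.5 for FLAG Rosa-PTBP1, 165.3 for FLAG loxp, 100.8 for PTBP2 WT and 70.2 for PTBP2 Rosa-PTBP1, each per 100000 intervals of its library. The wild-type FLAG values there were 12.1 and 24.7 for replicates 1 and 2. At 5001 to 10000 bases the densities had come down to 34.9, 35.2, 27.0 and 19.6, and the wild-type FLAG values were 9.16 and 12.3. Around PTBP2-listed sites the values at 201 to 500 bases were 215.0, 270.1, 242.8 and 163.3 in the same order. From 201 bases outward the density of both proteins thus was lower with distance from the members, and PTBP2 lay below FLAG-PTBP1 in each bin.

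The position of FLAG-PTBP1 within a member could be compared between the 2 FLAG-PTBP1 libraries, since the rule asked only that their sites overlap. The 5′ ends of the intervals were used. The protocol circularised the cDNA, and in such protocols reverse transcription often stops beside the crosslinked base, so that the read starts there. At 869 members (43.5%, 41.3 to 45.7) a most frequent start of FLAG Rosa-PTBP1 was also a most frequent start of FLAG loxp, ties counted as a match. This was close to the 42.1% of all 6036 sites stacked in both libraries. The starts lay within 2 bases at 1182 members (59.2%) and within 5 bases at 1347 (67.5%), against 58.8% and 69.5% of PTBP2-listed sites. At 20 to 49 intervals the same start was found at 39.5% of members and 42.6% of PTBP2-listed sites. The most frequent start took a median of 18.2% of the FLAG Rosa-PTBP1 intervals of a member. With a median of 9 intervals per member, such a start rests on few intervals. Where starts tied, the nearest pair was used, which makes a match easier. Ties were not confined to small sites. At chr16:6724634-6724919, with 75 FLAG Rosa-PTBP1 intervals, the most frequent start took 1.33% of them, so all starts tied. At members with 20 to 49 intervals it took a median of 8.70%. A match can therefore be any shared start and need not be a shared peak. Intervals identical in both ends made up 567 of the 22922 FLAG Rosa-PTBP1 intervals at members (2.47%), and 2220 of 65975 at PTBP2-listed sites (3.36%). Both libraries came from 1 run, and whether reads crossed between them was not tested. A single FLAG loxp stacked site lay over 1916 members (96.0%), and FLAG loxp sites covered a median of 82.8% of a member's width.

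Between the FLAG-PTBP1 libraries, with and without the PTBP2 loxp alleles, the shares at members can be compared only within a selection, since the rule kept sites stacked in both. Over all 15078 stacked sites of FLAG Rosa-PTBP1 the median FLAG loxp count was 1, and similar shares at the sites kept follow in part from that step. The ratio of the share of intervals in FLAG loxp to that in FLAG Rosa-PTBP1 had a median log2 value of 0.14 over the members, the same as over all 6036 sites stacked in both libraries, and 0.18 over PTBP2-listed sites. A share more than 2-fold higher in FLAG loxp was seen at 159 members (7.97%), beside 9.05% of all sites stacked in both libraries, and a share more than 2-fold lower at 196 (9.82%), beside 9.03%. Members thus passed 2-fold about as often as the background in each direction. Scaling by the intervals on the 12 chromosomes, which leaves out the sparse chromosome 10, moved every log2 ratio up by 0.13. It turned the split to 243 members higher (12.2%, background 13.4%) and 163 lower (8.17%, background 7.44%), so the prevailing direction depends on the scaling. The exact conditional binomial 95% interval of the ratio, which covers counting error alone, lay above 1 at 57 members (2.86%) and below 1 at 67 (3.36%), against 6.39% and 4.69% of all sites stacked in both.

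Among larger sites, the median ratio was lower at members than at PTBP2-listed sites. With 40 or more intervals in both libraries together, 18 of 126 members were more than 2-fold lower in FLAG loxp (14.3%) and 6 higher (4.76%), with a median log2 ratio of -0.16. The PTBP2-listed sites of that class had 62 of 905 lower (6.85%) and 53 higher (5.86%), with a median of 0.13. At totals of 20 to 39 the medians were -0.04 for members and 0.14 for PTBP2-listed sites, and below 20 they were 0.18 and 0.23. Scaling by the 12 chromosomes moves both sets alike and leaves the gap between them as it is: the medians at 40 or more intervals were -0.03 for members and 0.26 for PTBP2-listed sites, with 14 members lower and 10 higher; at 20 to 39 the member median turned to 0.08. The edges of every site were set by FLAG Rosa-PTBP1, and FLAG loxp was counted only inside them. Over sites of all sizes, stacked FLAG loxp sites covered a median of 82.8% of the width of members and 88.3% of PTBP2-listed sites. The part of these edges in the gap was not tested. With 1 library per genotype the spread between animals is unknown, and no test of the alleles was possible.

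The 10 members with the highest share in both FLAG-PTBP1 libraries, ranked by the lower of the 2 shares, lay on chromosomes 1, 2, 3, 12, 16, 17 and 18. By the rule each of them was listed at 0 in both PTBP2 and both wild-type FLAG libraries. First came chr1:170331095-170331485 on the minus strand of mm9, 391 bases wide, with 123 intervals in FLAG Rosa-PTBP1 and 56 in FLAG loxp. Its share was 35.0 and 21.1 per 100000 intervals, a FLAG loxp ratio of 0.602 (0.431 to 0.832). An equal share would have put 51.8 intervals in PTBP2 WT. The nearest PTBP2 interval lay 561 bases away and belonged to the Rosa-PTBP1 library, and the nearest PTBP2 WT interval 1232 bases away. Its flanks of 1000 bases held 113 intervals of FLAG Rosa-PTBP1, 104 of FLAG loxp, 0 of PTBP2 WT, 4 of PTBP2 Rosa-PTBP1 and 7 and 2 of wild-type FLAG. FLAG-PTBP1 was thus dense both in and beside this member, and PTBP2 nearly missing over the whole stretch.

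The second, chr1:170356539-170356907 on the same strand, held 118 and 51 intervals (ratio 0.571, 0.403 to 0.800), and here PTBP2 WT lay 32 bases from the edge. Its flanks held 235 FLAG Rosa-PTBP1, 149 FLAG loxp, 55 PTBP2 WT and 16 PTBP2 Rosa-PTBP1 intervals, with 9 and 27 of wild-type FLAG. The most frequent start of the intervals was the same base in both FLAG-PTBP1 libraries. This member was thus a gap in a PTBP2-bearing stretch, unlike the first.

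The third, chr16:6894918-6895130 on the plus strand, held 55 intervals in FLAG Rosa-PTBP1 and 45 in FLAG loxp (ratio 1.08, 0.713 to 1.63), with PTBP2 WT 200 bases and PTBP2 Rosa-PTBP1 214 bases away. Its flanks held 302 and 200 intervals of FLAG Rosa-PTBP1 and FLAG loxp and 34 and 20 of PTBP2 WT and PTBP2 Rosa-PTBP1. The fourth, chr17:81980771-81980969 on the minus strand, held 52 and 50 (ratio 1.27, 0.845 to 1.91), with flanks of 323, 247, 36 and 1 intervals in the same order of libraries. At both of these the 2 FLAG-PTBP1 libraries held shares within counting error of each other.

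**Figure D4:**
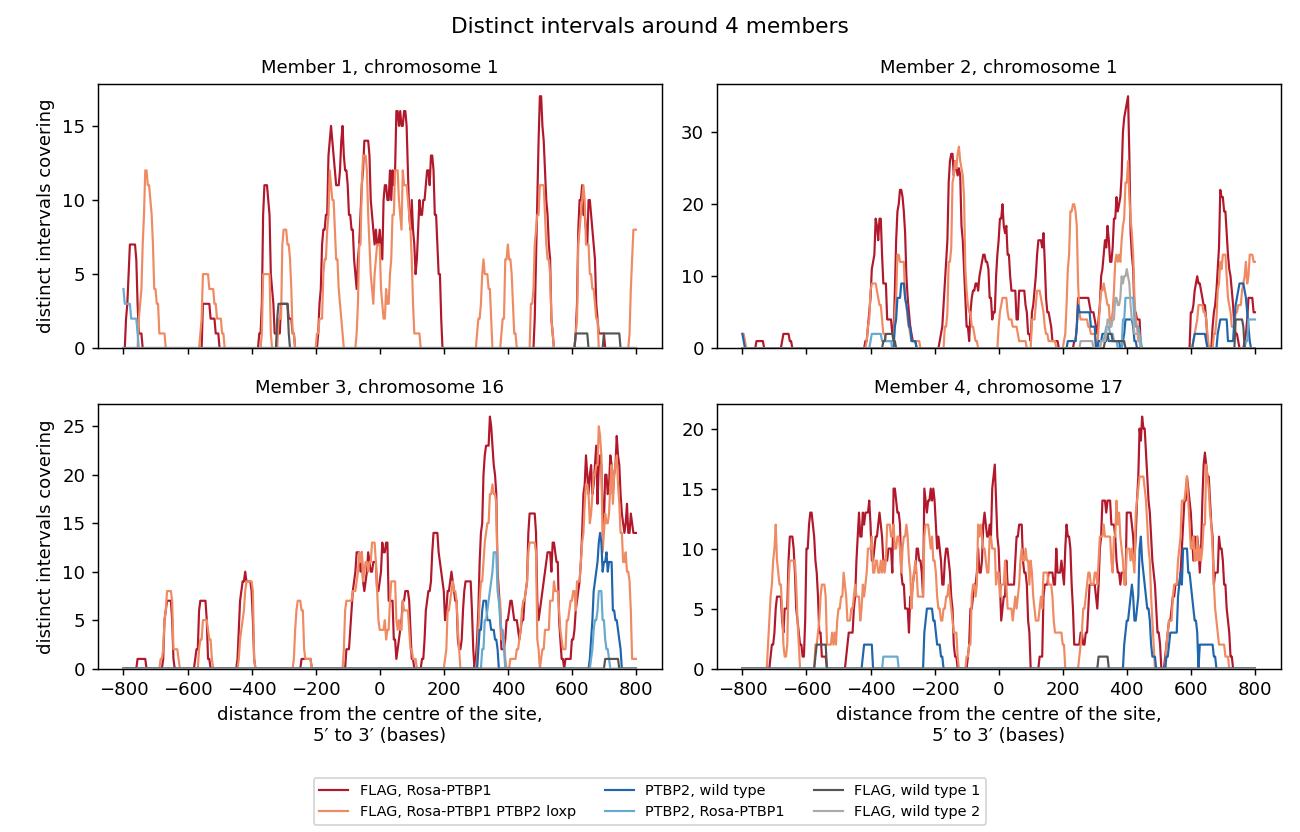
Number of distinct intervals covering each position within 800 bases of the centre of the 4 members with the highest share in both FLAG-PTBP1 libraries, read 5′ to 3′ on the strand of the RNA, for all 6 libraries. In each panel both FLAG-PTBP1 lines rise within the member, where the PTBP2 and wild-type FLAG lines are at 0 by the rule. At member 1 both lines rise about as high beside the member. FLAG Rosa-PTBP1 reaches 16 within it and 17 beside it, and FLAG loxp 13 and 12. PTBP2 WT rises beside members 2, 3 and 4, and beside member 1 the one PTBP2 line is PTBP2 Rosa-PTBP1, at the left edge.

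The other 6 of these members held 43 to 55 intervals in FLAG Rosa-PTBP1. On chromosome 3, chr3:25721463-25721771 (minus strand) held 55 and 38 intervals, with 4 PTBP2 WT intervals in its flanks against 99 of FLAG Rosa-PTBP1. By contrast chr3:80509124-80509248 (minus strand) held 46 in FLAG Rosa-PTBP1 and 71 in FLAG loxp, a share 2.04-fold higher in FLAG loxp (1.39 to 3.02). PTBP2 WT lay 28 bases from that site and PTBP2 Rosa-PTBP1 30 bases, and its flanks held 27, 120, 45 and 60 intervals of FLAG Rosa-PTBP1, FLAG loxp, PTBP2 WT and PTBP2 Rosa-PTBP1. Each PTBP2 library thus held more intervals beside this member than FLAG Rosa-PTBP1 did, which was so at none of the other 9.

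At chr1:56949456-56949654 (minus strand, 47 and 44 intervals) PTBP2 WT came within 14 bases and PTBP2 Rosa-PTBP1 within 20, and the flanks held 39 and 43 of their intervals. At chr12:114261482-114261626 (plus strand, 45 and 37 intervals) the flanks held 17 and 16 intervals of FLAG Rosa-PTBP1 and FLAG loxp, fewer than the member medians of 39 and 26, and 11 and 10 of PTBP2 WT and PTBP2 Rosa-PTBP1, more than the medians of 5 and 1. Wild-type FLAG held 0 there. The member chr2:4130579-4130817 (plus strand) held 50 and 34 intervals, and chr18:25833258-25833445 (minus strand) 43 and 39, with PTBP2 WT 95 and 706 bases away. PTBP2 WT was the nearer of the PTBP2 libraries at all 10 members but the first.

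The widest 5 members comprised 3 already described (on chromosomes 1 and 3) and chr2:104221402-104221804 (minus strand, 403 bases) and chr16:6724634-6724919 (plus strand, 286 bases). The chromosome 2 member held 80 intervals in FLAG Rosa-PTBP1 and 29 in FLAG loxp, a share 2.09-fold lower in FLAG loxp (1.35 to 3.31). No PTBP2 interval came nearer than 561 bases, and its flanks held 90, 82, 14 and 5 intervals of the 4 PTBP libraries. The chromosome 16 member held 75 and 23 (2.47-fold lower, 1.53 to 4.12), and PTBP2 WT lay 29 bases away with 5 intervals in the flanks. At each of these, 2 separate stacked FLAG loxp sites lay over part of the width, 43.9% on chromosome 2 and 75.2% on chromosome 16. Width was set by FLAG Rosa-PTBP1 alone, so the ratios of the widest members are not independent of how they were picked.

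Between the FLAG-PTBP1 libraries the extreme members were picked by their ratio, so their folds describe them and test nothing. Among the 744 members with 20 or more intervals in both libraries together, the highest ratio of the FLAG loxp to the FLAG Rosa-PTBP1 share was at chr1:42758685-42758736 (plus strand), with 34 intervals against 7 in FLAG Rosa-PTBP1 (6.42-fold, 2.80 to 17.2). Its flanks held 78 FLAG loxp intervals against 24, and 0 of PTBP2 WT and 8 of PTBP2 Rosa-PTBP1. Next came chr18:23791207-23791270 (plus strand, 22 against 6, 4.85-fold, 1.91 to 14.6) and chr2:18028079-18028118 (plus strand, 21 against 6, 4.63-fold, 1.81 to 14.0). The flanks of the latter held 98 FLAG loxp intervals against 23. At chr12:45435848-45435900 (plus strand) and chr15:73247221-73247273 (minus strand) 17 intervals stood against 5, and the flanks of the chromosome 15 member held 2 against 7.

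At the 5 members with the lowest ratios, FLAG loxp stacked sites lay over 0.746% to 14.2% of the width, against a median of 82.8% over all members. At chr2:6701258-6701391 (minus strand) 38 intervals in FLAG Rosa-PTBP1 stood against 1 in FLAG loxp, and at chr1:170286760-170286872 (minus strand) 26 against 1. Their shares were 28.7-fold (4.86 to 1164.8) and 19.7-fold (3.23 to 806.3) lower. A further 3 members were chr15:68885653-68885793 (plus strand, 31 against 3), chr16:5990378-5990478 (plus strand, 18 against 2) and chr18:69770029-69770297 (plus strand, 71 against 9). At the chromosome 18 member the share was 5.97-fold lower (2.97 to 13.6), and its flanks held 120 FLAG Rosa-PTBP1 intervals against 55. The flanks of the 2 lowest held 77 against 58 and 207 against 151, close to the ratio of the libraries' totals, 351602 against 265953 distinct intervals.

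The 10 members farthest from PTBP2 held 5 to 19 FLAG Rosa-PTBP1 intervals, and their flanks of 1000 bases held 0 to 17. The farthest, chr3:81943739-81943846 (minus strand), held 19 intervals in FLAG Rosa-PTBP1 and 16 in FLAG loxp, and its nearest PTBP2 interval on that strand was 1236751 bases away. Within 100 kb on each side, both strands together, the lists held 29 FLAG Rosa-PTBP1, 43 FLAG loxp, 0 PTBP2 WT, 0 PTBP2 Rosa-PTBP1 and 9 and 2 wild-type FLAG intervals. It was the one among the 10 farthest with no PTBP2 interval in that span. The next, chr3:106348882-106348937 (minus strand), held 6 and 9 intervals and lay 458295 bases from PTBP2 on its strand, yet PTBP2 WT and PTBP2 Rosa-PTBP1 held 2 and 10 intervals within 100 kb on either strand. The other 8 lay 51798 to 89652 bases from PTBP2. Stretches missing from a PTBP2 list cannot be told apart here from RNA without PTBP2.

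Members lay in groups, as did the sites they were drawn from. They fell in 659 windows of 100 kb, of which 325 held 1 member and 121 held 5 or more; these 121 held 1111 members (55.7%). The next member on the same strand was a median of 1077 bases away, and 984 members (49.3%) had another within 1000 bases. The PTBP2-listed sites, which are more numerous, were closer together, with a median of 249 bases to the next, 65.7% with another within 1000 bases and 66.3% in windows of 5 or more. Over all 5150 sites that could have been members these values were 208 bases, 71.4% and 74.7%, so grouping was seen in each of these sets. In only 4 of the 334 windows with 2 or more members were both strands represented, so nearly every crowded window had its members on 1 strand. The lists themselves rarely held both strands of a place: of the 43026 merged FLAG Rosa-PTBP1 sites, 4 overlapped a site on the opposite strand, and in each of the other 5 libraries the number was 0.

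Most members in a single window, 30, lay at 170.2 to 170.3 Mb of chromosome 1, all on the minus strand with 5 to 31 FLAG Rosa-PTBP1 intervals. They were 30 of the 54 sites there stacked in both FLAG-PTBP1 libraries and free of wild-type FLAG (55.6%, 41.4 to 69.1, against 38.8% over the 12 chromosomes). In all, the window held 1957 FLAG Rosa-PTBP1, 1403 FLAG loxp, 287 PTBP2 WT and 167 PTBP2 Rosa-PTBP1 intervals, with 83 of wild-type FLAG replicate 1 and 105 of replicate 2. The adjoining window from 170.3 to 170.4 Mb, which holds the 2 members with the most intervals, had 25 members of 50 sites, with 2836, 1851, 415 and 197 intervals in the 4 PTBP libraries and 94 and 180 in wild-type FLAG. In the latter the members together had 513 intervals in FLAG Rosa-PTBP1 and 305 in FLAG loxp, a ratio of 0.786 (0.680 to 0.907). Summed intervals of neighbouring sites are not independent, so this interval is too narrow. Wild-type FLAG replicate 2 was dense in the window from 170.3 to 170.4 Mb as well, with 180 of its 17129 intervals on the 12 chromosomes. FLAG Rosa-PTBP1 had 2836 of 223107 there, PTBP2 WT 415 of 93916 and wild-type FLAG replicate 1 94 of 51141.

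The other 8 of the 10 fullest windows lay on chromosomes 1, 2, 3, 11, 16 and 18 and held 17 to 24 members each, again on 1 strand per window. On chromosome 16, the window at 7.0 to 7.1 Mb had the highest share of members, 22 of 34 sites (64.7%, 46.5 to 80.3), with 1372 intervals in FLAG Rosa-PTBP1, 749 in FLAG loxp, 294 in PTBP2 WT and 248 in PTBP2 Rosa-PTBP1. A nearby window on the same strand, at 6.8 to 6.9 Mb, had 23 of 53 (43.4%, 29.8 to 57.7) and 784 PTBP2 WT intervals. At 25.7 to 25.8 Mb of chromosome 3 there were 24 members among 48 sites, with 1980 and 722 intervals in FLAG Rosa-PTBP1 and PTBP2 WT. The intervals of these shares overlap one another, so the windows were not told apart beyond counting error. Windows were ranked by their members, and a high share in them is therefore partly chosen. Together the 10 windows held 223 members (11.2%). PTBP2 was listed in every one of them, with 258 to 784 PTBP2 WT intervals, so none of these windows was empty of PTBP2.

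**Figure D5:**
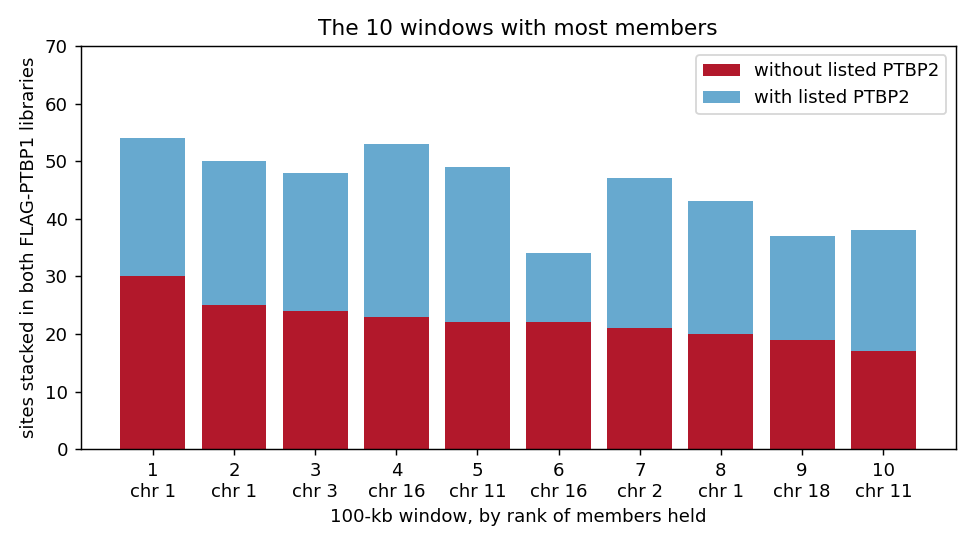
Sites stacked in both FLAG-PTBP1 libraries and free of wild-type FLAG in the 10 windows of 100 kb with the most members, split into members (red) and PTBP2-listed sites (blue), in order of members held. Both kinds are present in every window, and members make up from 43.4% to 64.7% of the sites.

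Members were found on all 12 chromosomes, with 50 on chromosome 19 to 285 on chromosome 2. As a share of the sites that could have been members, they ranged from 30.8% on chromosome 14 (191 of 621, 27.1 to 34.6) to 52.6% on chromosome 19 (50 of 95, 42.1 to 63.0). On chromosome 13 the share was 32.1% (26.8 to 37.7) and on chromosome 15 it was 44.6% (38.7 to 50.5). Sites on chromosome 19 had a median of 9 FLAG Rosa-PTBP1 intervals and those on chromosome 14 a median of 12. These medians did not order the shares throughout. Chromosomes 12 and 13 both had a median of 10, with member shares of 42.6% and 32.1%. Wild-type FLAG replicate 2 held 4731 of its 17129 intervals on chromosome 19; the part of this in the small number of sites left there was not tested. Neighbouring sites of 1 transcript are not independent, so these intervals are too narrow.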

How the data were processed

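The 6 lists give intervals of reads in clusters that passed a false discovery rate, in the mm9 build, per the file headers; the authors deposited no score or count per interval, only positions, so the values here are positions and numbers of distinct positions. Reads were aligned with Bowtie, per the submitters' processing notes; the sources used here give neither its version nor the cluster caller and the rate. Repeated lines at 1 position were collapsed to 1 distinct interval. Intervals that overlapped or touched on a strand were merged into sites, and a site of 5 or more was called stacked. Counts at a site are the distinct intervals of a library that overlap the merged FLAG Rosa-PTBP1 site by 1 base or more. Intervals of a FLAG loxp site that lie past those edges are not counted. Shares divide by all distinct intervals of a library, and flank densities by those on the 12 chromosomes. An equal share multiplies the FLAG Rosa-PTBP1 count by the ratio of the libraries' intervals on the 12 chromosomes. Ratios carry exact conditional binomial 95% intervals and percentages exact Clopper-Pearson ones; both cover counting error only, and reads without molecular identifiers are not independent molecules. With 1 library per group, apart from 2 of wild-type FLAG, no p-value was computed. Members named are the 10 with the highest lower share, the 5 highest and 5 lowest ratios among those with 20 or more intervals, the 5 widest and the 10 farthest from PTBP2, and the 10 windows of 100 kb with the most members. The members and lists were chosen with earlier results of these data known. Python 3.11.15, NumPy 2.4.6, SciPy 1.17.1 and matplotlib 3.10.9 were used, and the site calling was checked on simulated data. The planned gene lists, cell type markers and motifs need a genome and gene model of mm9, and were not used here.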

Additional observations from a re-analysis of the deposited data

How the results depend on the processing

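The number of members, 1996, stayed within 1.5 times under 10 of 14 alternatives. It was 434 with 10 or more intervals asked of a stacked site, 1149 with no PTBP2 interval allowed within 200 bases and 3484 over all chromosomes, where sparse lists also count as empty. Leaving out 1 library at a time gave 2054 to 3352, the highest without the PTBP2 WT library and the lowest without wild-type FLAG replicate 2. Asking for 3 or 10 intervals changed the median intervals per member from 9 to 8 or 16, the median width from 67 to 62 or 92 bases, and the share past 2-fold from 17.8% to 25.2% or 11.3%. That share was 15.6% with no PTBP2 within 200 bases, 20.3% scaled by the 12 chromosomes, and 15.4% when intervals were counted in the union of the overlapping sites. Without a wild-type FLAG replicate the medians were 9 intervals in both cases and 67 to 68 bases, and the share 17.8% to 18.4%. The median distance to PTBP2 of 273 bases was 297 or 210 with 3 or 10 intervals and 266.5 to 274.5 without a wild-type FLAG replicate, alternatives chosen after the data were seen. The cause of these changes was not tested. Alternatives for genes, places and motifs were not run, for want of an mm9 genome and gene model. No paired analysis was possible because each group but wild-type FLAG held 1 library. For 1335 members an equal share of PTBP2 WT came to fewer than 5 intervals. Whether depth left the PTBP2 lists empty at these members was not tested.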
